A study of Arabidopsis thaliana with 18 samples.

Results

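The cytosolic large ribosomal subunit (60S) of plants carries about the same set of proteins as that of other eukaryotes, and in Arabidopsis each of them is encoded by a small gene family. The 37 genes described here code for large-subunit proteins named between RPL3 and RPL30. RPL5 was left out, and some other proteins in that range have no gene among the 37 either. They were taken by locus from a list that was chosen with earlier results of these data known. All were present in both deposited tables, as 37 of 34212 loci. They fall into 26 protein families, of which 16 are represented by 1 gene and 10 by 2 or more. All 37 passed the filter on low counts in every comparison.

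Leaf RNA came from Arabidopsis thaliana plants of the Columbia-0 ecotype, germinated on plates, moved to soil and harvested 3 weeks after germination, in 2 genotypes. The control was the single mutant pad4-1. The other genotype was the double mutant upf1-3 pad4-1, called the mutant below, so both genotypes lacked normal PAD4, a regulator of salicylic acid defence, and only the mutant carried the upf1-3 allele. UPF1 is the RNA helicase of nonsense-mediated mRNA decay, which removes transcripts whose translation ends abnormally. For each genotype there were 3 biological replicates of total RNA, of monosomal RNA (carrying a single ribosome) and of polysomal RNA (carrying several), 18 libraries in all. Libraries were strand-specific and made after ribosomal RNA depletion.

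Ribosomal proteins are made in step with ribosomal RNA, and their genes are among the most highly expressed in growing tissue. In plants their transcripts are also known to move as a group on and off polysomes with light, sugar and stress, and many of their promoters hold the telo box and site II elements that are shared with genes of the cell cycle. Most families keep several active copies, and loss of a single copy often gives pointed leaves or embryo defects.

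The libraries held 16325537 to 81528839 estimated counts each. UPF1 (AT5G47010, listed as LBA1) stood at 61.7 to 76.1 CPM (counts relative to library size, scaled with edgeR's TMM factors, the unit of all levels here) in control total RNA and at 24.8 to 39.3 CPM in mutant total RNA. In polysomal RNA the library labelled mutant polysomal replicate 3 held 65.6 CPM of UPF1, above all 3 controls at 46.4 to 49.7 CPM, and the other 2 mutant libraries held 26.4 and 32.7 CPM. In monosomal RNA the groups overlapped, at 42.8 to 48.1 and 37.5 to 43.3 CPM. Chloroplast genes took 20.7 to 74.1% of counts, with control replicate 1 the richest in both ribosome fractions, and nuclear ribosomal RNA took 10.4% in mutant total replicate 2. The 5 leaf mesophyll markers summed to 7891 to 33826 CPM in total RNA, so that markers of the labelled tissue were present in every library. The 5 flower markers summed to at most 12.1 CPM in total RNA, but to 104 and 131 CPM in control monosomal replicates 3 and 2, against 7.01 CPM in control replicate 1 and at most 2.63 CPM in the mutant.

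Promoter windows are shown first, for the telo box and site II elements that plant ribosomal protein promoters are known to share. Whether these elements had a part in the change of the 37 genes was not tested. Each window runs over the 250 bases before the annotated gene start (RefSeq, TAIR10.1), on the gene's strand, 5′ to 3′. Capitals mark a telo box (AAACCCTA) or a site II core (TGGGCC or TGGGCT) on either strand, and matches may overlap. The 4 genes were AT2G01250 (RPL7, chr2:134456-134705, minus strand) and AT1G02780 (RPL19, chr1:609535-609784, minus strand), which had among the lowest mutant levels relative to control, AT5G60670 (RPL12, chr5:24381600-24381849, minus strand), which held 2 telo boxes, and AT3G07110 (RPL13A, chr3:2251696-2251945, plus strand), which was not called in total RNA.
AT2G01250: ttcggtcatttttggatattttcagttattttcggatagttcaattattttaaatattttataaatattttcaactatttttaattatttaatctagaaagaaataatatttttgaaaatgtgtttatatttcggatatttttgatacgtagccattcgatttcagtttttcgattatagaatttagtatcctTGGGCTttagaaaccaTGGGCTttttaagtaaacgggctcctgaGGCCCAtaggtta
AT1G02780: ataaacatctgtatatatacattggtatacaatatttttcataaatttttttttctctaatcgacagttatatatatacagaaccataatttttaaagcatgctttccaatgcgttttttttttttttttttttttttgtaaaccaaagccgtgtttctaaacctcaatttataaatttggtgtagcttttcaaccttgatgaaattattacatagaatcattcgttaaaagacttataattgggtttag
AT5G60670: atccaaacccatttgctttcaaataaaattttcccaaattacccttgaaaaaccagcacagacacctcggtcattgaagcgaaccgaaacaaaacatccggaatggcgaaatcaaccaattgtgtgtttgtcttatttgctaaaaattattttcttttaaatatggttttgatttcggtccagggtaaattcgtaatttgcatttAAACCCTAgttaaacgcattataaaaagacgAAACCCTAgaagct
AT3G07110: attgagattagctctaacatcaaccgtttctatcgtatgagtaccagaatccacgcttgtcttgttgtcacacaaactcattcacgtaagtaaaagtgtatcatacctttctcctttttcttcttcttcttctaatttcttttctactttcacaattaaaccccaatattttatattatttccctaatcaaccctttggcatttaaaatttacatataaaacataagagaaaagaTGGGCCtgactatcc

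A site II core was found in 22 of the 37 windows (59.5%), against 19.2% of 27437 protein-coding promoters of the same length. For genes tested in total RNA the share was 22.7%. It was 74.7% for other large-subunit, 67.1% for small-subunit, 55.9% for ribosome biogenesis and 25% for plastid large-subunit genes. A telo box was found in 6 of the 37 windows (16.2%), against 4.49% of all promoters. In the same 4 lists the telo box shares were 28.6%, 14.1%, 23.5% and 8.33%. Of the 37 windows 12 held neither element. The median log2 fold change in total RNA was -1.60 for the 22 genes with a site II core and -1.57 for the 15 without, and -1.57 for the 12 with neither element. The windows of RPL19, with neither, and of AT2G01250 (RPL7), with 3 site II cores, were shown because both genes had low log2 fold changes, at -2.17 and -2.13. Their likeness follows from that choice and says nothing about the elements. In 19 of the 37 cases the window overlapped another annotated gene. A match only says that these letters were present.

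In control leaves the 37 genes took 1.26 ± 0.067% (SD, n = 3) of the nuclear counts outside ribosomal RNA in total RNA, and in mutant leaves 0.484 ± 0.025%. The shares were 1.35 ± 0.104% and 0.762 ± 0.056% in monosomal RNA, and 1.51 ± 0.120% and 0.649 ± 0.247% in polysomal RNA. The groups did not overlap in any of the 3 kinds of RNA. Per kilobase of coding sequence, with all 18 libraries scaled together, the most abundant in control total RNA were AT1G67430 (RPL17), which lines the exit tunnel, at 1199 ± 130 CPM (SD, n = 3), AT4G27090 (RPL14) at 1030 ± 142 CPM, and RP1 (AT1G43170, RPL3) at 883 ± 112 CPM per kilobase. Neighbours in this order differed by little more than 1 SD. RPL10B (AT1G26910) at 10.6 ± 2.28, RPL16A (AT2G42740, RPL11) at 14.3 ± 2.02 and RPL3B (AT1G61580) at 35.5 ± 7.47 CPM per kilobase were the lowest in control total RNA. The same 3 were the lowest in each of the other 5 groups. In monosomal RNA RPL14 was the highest in both genotypes, at 2221 ± 653 and 937 ± 117 CPM per kilobase, and in control polysomal RNA it was second to emb2386 (AT1G02780, RPL19) at 1024 ± 152 CPM per kilobase.

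**Figure D1:**
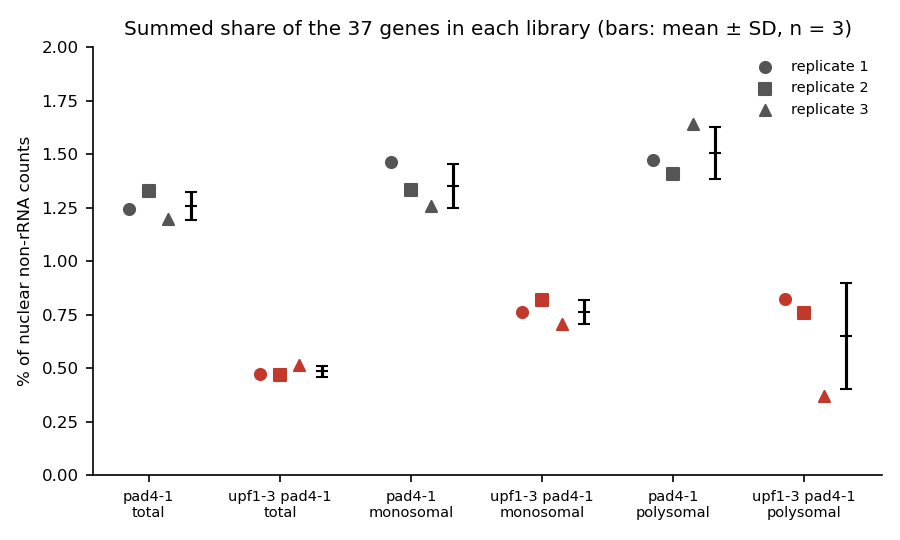
Share of nuclear counts outside ribosomal RNA that fell on the 37 genes, in percent, for each of 18 libraries (points), with the mean and SD of each group of 3 beside them. In each of the 3 kinds of RNA all 3 mutant libraries lie below all 3 control libraries, and the library labelled mutant polysomal replicate 3 is the lowest of all at 0.367%.

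Large-subunit ribosomal protein transcripts fell in total RNA of the mutant. All 37 had a lower estimate in the mutant, and 35 were called lower (edgeR quasi-likelihood test, Benjamini-Hochberg adjusted p under 0.05 over 20302 genes), where 12.5% of all tested genes were called lower. The median log2 fold change was -1.57, against 0.03 over all tested genes, and the range was -2.17 to -0.83. For all 37 the 3 mutant libraries lay below the 3 control libraries, a pattern shown by 23.8% of all tested genes. In leaf tissue, fewer cells of a growing type and less ribosomal protein RNA per cell cannot be told apart.

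RPL23AA (AT2G39460, chr2:16474149-16476141), a docking protein at the exit of the nascent chain, held 121, 115 and 80.1 CPM in the control and 27.2, 18.2 and 24.8 CPM in the mutant. Every mutant library was far below the lowest control. Its log2 fold change was -2.17 (SE 0.26, adjusted p = 0.00236). RPL19 (emb2386, chr1:607799-609534), which contacts the small subunit, fell from 661, 515 and 454 CPM to 137, 103 and 124 CPM (log2 fold change -2.17, SE 0.26, adjusted p = 0.00217). AT2G01250 (RPL7, chr2:132578-134455) fell from 198, 193 and 132 CPM to 26.9, 46.2 and 46.3 CPM (-2.13, SE 0.30, adjusted p = 0.00344). In none of these 3 did the groups overlap. RP1 (chr1:16266553-16268945), the main RPL3 gene, whose protein lies next to the peptidyl transferase centre, held 1128, 911 and 938 CPM in the control and 252, 249 and 256 CPM in mutant libraries (-1.97, SE 0.23, adjusted p = 0.00203). The mutant libraries of RP1 differed among themselves far less than those of the control.

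The smallest differences were those of AT1G08360 (RPL10A), AT3G07110 (RPL13A) and RPL10B. AT1G08360, a protein of the mobile L1 stalk, held 62.4, 84.5 and 47.7 CPM in the control and 35.3, 39.5 and 34.6 CPM in mutant libraries (-0.83, SE 0.25, adjusted p = 0.0423). AT3G07110, whose human counterpart is known to leave the ribosome and silence inflammatory mRNAs, held 86.5, 132 and 144 CPM in the control and 40.6, 84.5 and 75.0 CPM in the mutant, with a log2 fold change of -0.86 (SE 0.33, adjusted p = 0.089) that missed the threshold. The highest mutant and the lowest control library of AT3G07110 differed by only about 2 CPM. RPL10B held 5.88, 5.93 and 8.51 CPM in the control and 2.25, 3.12 and 4.66 CPM in the mutant, which gave -1.02 (SE 0.34, adjusted p = 0.0576). These 3 genes lay near the threshold, and their calls changed with the setting. RPL10B was called by DESeq2 (adjusted p = 0.0263), by limma-voom (0.0472), with no TMM scaling and under a replicate block. Its family was called when summed, which does not test RPL10B itself. AT3G07110 was called with no TMM scaling (adjusted p = 0.04) and under a replicate block, and its family was called when summed. AT1G08360 lost its call with no filter (adjusted p = 0.0519) and under a replicate block (0.0526).

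The calls of 6 genes depended on single libraries. Those of RPL3B and SAC52 were lost without any of the 3 control libraries, that of RPL24A without any library but mutant replicate 3, and that of AT1G08360 without any but control replicate 3. The call of AT4G27090 was lost without control replicate 1 or 2, and that of AT1G18540 without control replicate 1. The other 29 held in all 6 fits. Without mutant replicate 2, the library rich in ribosomal RNA, 33 were called.

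**Figure D2:**
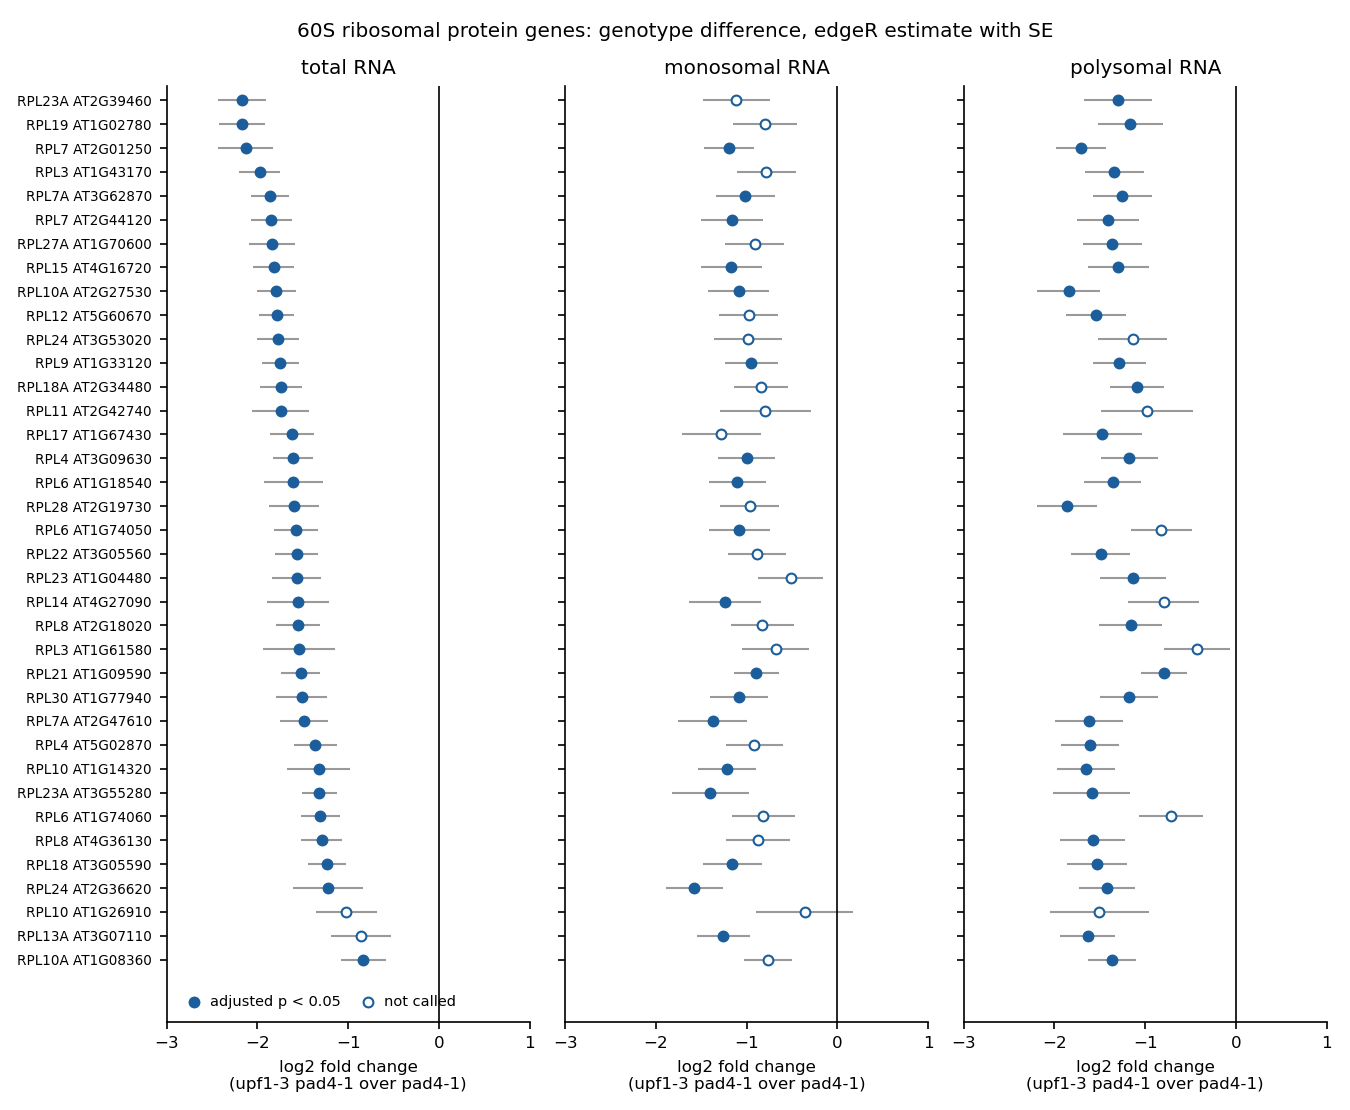
Log2 fold change of each gene between mutant and control with its standard error, in total, monosomal and polysomal RNA, ordered by total RNA from RPL23AA at the top (-2.17) to AT1G08360 at the bottom (-0.83). Filled points had an adjusted p under 0.05 (35, 18 and 30 of 37). Every estimate is below 0 (with no TMM scaling, 2 monosomal and 1 polysomal estimates are not).

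By position in the ribosome, as known from structures of eukaryotic ribosomes, the change in total RNA was similar. The 11 genes for proteins around the peptidyl transferase centre and the exit tunnel (RPL3, RPL4, RPL8, RPL10, RPL17 and RPL23A) had a median of -1.54, and 10 were called lower. Both RPL4 genes, whose protein reaches into the tunnel, fell: AT3G09630 by 1.61 and AT5G02870 by 1.36 on the log2 scale (SE 0.22 and 0.24, adjusted p = 0.00326 and 0.00651). So did both RPL8 genes, EMB2296 (AT2G18020) at -1.55 and AT4G36130 at -1.29 (SE 0.24 and 0.23, adjusted p = 0.00466 and 0.00677). SAC52 (AT1G14320), the main RPL10 gene, known for a dominant allele that restores growth to a thermospermine mutant, stood at -1.32 (SE 0.35, adjusted p = 0.0264). RPL3B stood at -1.54 (SE 0.39, adjusted p = 0.0242) and RPL23AB (AT3G55280) at -1.32 (SE 0.19, adjusted p = 0.00378).

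The 5 genes for stalk proteins, factor binding and 5S rRNA contact (RPL9, RPL10A, RPL11 and RPL12) had a median of -1.75, and all 5 were called lower. PGY1 (AT2G27530), an RPL10A gene known for its part in leaf patterning, fell from 149, 176 and 163 CPM to 39.7, 50.9 and 50.6 CPM (-1.79, SE 0.22, adjusted p = 0.00228). Its copy AT1G08360 was the least changed of all 37. AT5G60670 (RPL12), at the base of the acidic stalk where translation factors bind, fell by 1.79 on the log2 scale (SE 0.19, adjusted p = 0.00172).

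The 5 genes for proteins that contact the small subunit (RPL19, RPL23, RPL24 and RPL30) had a median of -1.57, and all 5 were called lower. STV1 (AT3G53020), an RPL24 gene known from gynoecium patterning and from translation reinitiation after upstream reading frames, fell by 1.77 on the log2 scale (SE 0.23, adjusted p = 0.00273). Its copy RPL24A (AT2G36620) stood at -1.22 (SE 0.39, adjusted p = 0.0494), with control libraries spread from 73.8 to 141 CPM.

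The other 16 genes had a median of -1.58, and 15 were called lower. Among the families with several members, the RPL6 genes AT1G18540, AT1G74050 and AT1G74060 stood at -1.60, -1.57 and -1.31 (SE 0.33, 0.24 and 0.21, adjusted p = 0.0113, 0.00439 and 0.00536). The second RPL7 gene, AT2G44120, stood at -1.85 (SE 0.23, adjusted p = 0.00237). The RPL7A genes AT3G62870 and AT2G47610 stood at -1.86 and -1.49 (SE 0.21 and 0.26, adjusted p = 0.00192 and 0.00692).

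Of the genes that stood alone for their family, AT1G70600 (RPL27A) and AT4G16720 (RPL15) fell most after RPL19, by 1.84 and 1.82 on the log2 scale (adjusted p = 0.00332 and 0.00249). AT1G67430 (RPL17), the highest per kilobase in control total RNA, fell from 638, 650 and 536 CPM to 170, 188 and 236 CPM (-1.62, SE 0.24, adjusted p = 0.0039). AT4G27090 (RPL14) fell from 431, 432 and 339 CPM to 206, 92.8 and 110 CPM (-1.55, SE 0.34, adjusted p = 0.0145). Its mutant replicate 1 lay well above the other mutant libraries but below all controls. AT1G77940 (RPL30) held 38.9, 61.5 and 55.3 CPM in the control and 12.6, 20.3 and 21.6 CPM in mutant libraries (-1.51, SE 0.28, adjusted p = 0.00874), and RPL18 (AT3G05590) stood at -1.23 (SE 0.21, adjusted p = 0.00589).

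Other gene lists moved the same way in total RNA. Of 82 further tested loci for large-subunit proteins 74 were called lower (median -1.46), and of 85 small-subunit loci 72 (median -1.32). Of 24 nuclear genes for plastid large-subunit proteins 23 were called lower (median -1.72), and of 34 ribosome biogenesis genes 24 (median -1.17). No gene of these 4 lists was called higher. Markers of dividing cells moved with the 37 genes: 8 of 10 were called lower (median -1.85), and their summed level was 143 to 173 CPM in control and 27.5 to 55.0 CPM in mutant total RNA. None of the 10 was at 0 in any group. Of the 5 mesophyll markers 3 were called lower, and their sum was 26766 to 33826 CPM in the control and 7891 to 17028 CPM in the mutant. The part of dividing cells and of mesophyll in the change of the 37 genes was not tested.

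**Figure D3:**
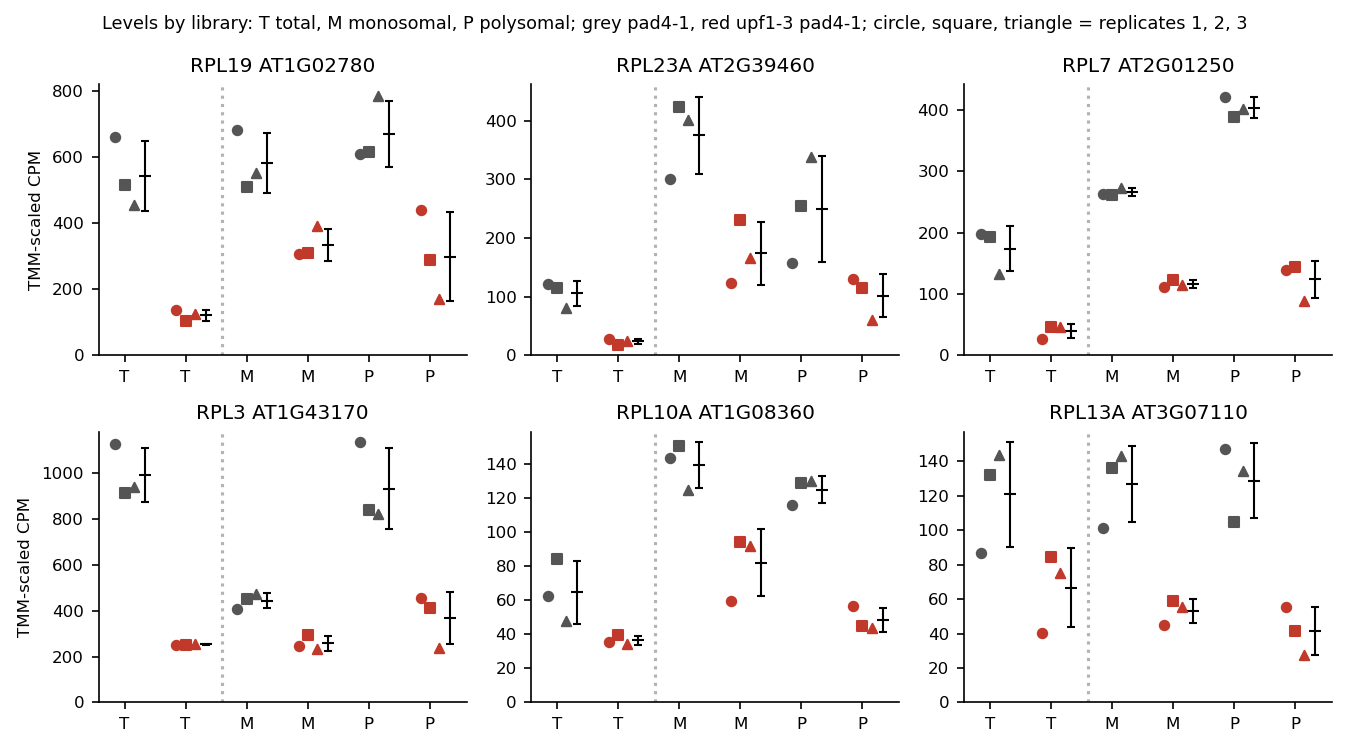
TMM-scaled CPM of 6 genes in each library, with mean and SD of 3 beside the points; total libraries and ribosome fractions were scaled separately and are parted by a dotted line. The upper row and RP1 hold the 4 lowest log2 fold changes in total RNA, AT1G08360 and AT3G07110 the 2 highest.

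In monosomal RNA all 37 genes again had lower estimates in the mutant (2, neither called, lay above 0 with no TMM scaling), and 18 were called lower, where 4.6% of 20895 tested genes were. With no TMM scaling 0 were called, and the median of all genes moved to 0.62. The median log2 fold change was -0.98, against 0.02 over all genes, and for 34 of the 37 all mutant libraries lay below all control libraries (14.6% of all genes). RPL24A was the lowest: 193, 155 and 128 CPM in the control and 47.7, 52.4 and 59.7 CPM in mutant libraries (-1.58, SE 0.31, adjusted p = 0.00414). RPL23AB held 230, 190 and 135 CPM and 62.1, 76.9 and 71.4 CPM (-1.40, SE 0.42, adjusted p = 0.0396). In both genes the highest mutant library was well under the lowest control. AT2G47610 (RPL7A) stood at -1.38 (SE 0.38, adjusted p = 0.0257) and AT1G67430 (RPL17) at -1.28 (SE 0.43, adjusted p = 0.0624). The smallest estimates were those of RPL10B, at -0.36 (SE 0.53, adjusted p = 0.711), and of AT1G04480 (RPL23), at -0.51 (SE 0.36, adjusted p = 0.376). The mutant libraries of AT1G04480, at 28.7, 37.8 and 42.5 CPM, overlapped the control libraries at 69.6, 49.1 and 36.8 CPM.

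The number of monosomal calls rested on single libraries although the median hardly moved. It was 2, 3, 3, 3, 8 and 11 without control monosomal replicate 2, control monosomal replicate 3, mutant monosomal replicate 1, 3 and 2, and control monosomal replicate 1, in that order, and 11 without control polysomal replicate 2. It rose to 27 without the library labelled mutant polysomal replicate 3. The median stayed between -1.17 and -0.91. Only AT2G01250 (-1.19, adjusted p = 0.0104) and RPL24A held in all 12 fits, and AT3G07110, at -1.26 (SE 0.30, adjusted p = 0.0117), was lost only without control monosomal replicate 2. The dividing-cell markers summed to 145 to 186 CPM in control and 30.8 to 54.6 CPM in mutant monosomal RNA, with 6 of 10 called lower, and 3 of 5 flower markers were called lower. Of the 5 mesophyll markers 0 were called lower in monosomal RNA, with 3 of 5 estimates below 0. The part of these marker lists in the result was not tested. Of the other lists, 46 of 82 further large-subunit, 35 of 84 small-subunit, 3 of 24 plastid large-subunit and 7 of 34 ribosome biogenesis genes were called lower.

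In polysomal RNA 30 of the 37 genes were called lower, where 5.04% of all tested genes were. The median was -1.36, against 0.03 over all genes, all 37 estimates were below 0 (1, not called, was above 0 with no TMM scaling), and for 32 the groups did not overlap (16.6% of all genes). With no TMM scaling 0 were called, and the median of all genes moved to 0.47. The third mutant polysomal value below is always that of the library labelled mutant polysomal replicate 3. AT2G19730 (RPL28), a protein that budding yeast lacks, held 97.2, 137 and 157 CPM in the control and 47.0, 35.9 and 25.0 CPM in mutant libraries (-1.86, SE 0.33, adjusted p = 0.00159). PGY1 held 309, 205 and 261 CPM and 97.2, 77.2 and 41.4 CPM (-1.84, SE 0.35, adjusted p = 0.00241). Each of these mutant libraries was under each control. AT2G01250 fell from 422, 388 and 402 CPM to 138, 144 and 88.9 CPM (-1.71, SE 0.28, adjusted p = 0.000819), and SAC52 from 272, 230 and 232 CPM to 90.7, 100 and 43.3 CPM (-1.65, SE 0.32, adjusted p = 0.00293). At the other end, RPL3B held 39.2, 42.4 and 37.7 CPM in the control and 46.1, 23.2 and 19.3 CPM in mutant libraries (-0.43, SE 0.37, adjusted p = 0.518). Its mutant replicate 1 was above all controls. AT1G74060 (RPL6) stood at -0.72 (SE 0.35, adjusted p = 0.2). Of the other lists, 57 of 82 further large-subunit, 52 of 84 small-subunit, 10 of 24 plastid large-subunit and 12 of 34 ribosome biogenesis genes were called lower.

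The library labelled mutant polysomal replicate 3 was the lowest in these genes. The median of the 37 log2 levels, relative to the control mean, was -2.02 there and -1.02 and -1.21 in replicates 1 and 2. Dividing-cell markers were also lowest there, at 18.6 CPM, but replicates 1 and 2 were alike at 88.4 and 88.8 CPM. The control held 182 to 272 CPM, and 4 of 10 were called lower. Flower markers summed to 2.76, 26.0 and 37.5 CPM in control and 6.78, 6.57 and 0.494 CPM in mutant polysomal RNA, with 2 of 5 called lower and 1 of 5 at 0 in the mutant. Of the 5 mesophyll markers 0 were called lower in polysomal RNA, with 3 of 5 estimates below 0. The part of these marker lists in the result was not tested. Without replicate 3 the median was -1.10 and 16 genes were called. It was also 16 without control polysomal replicate 3 and 19 without control polysomal replicate 2. Of the 30 calls 15 held in all 12 fits, among them both RPL10A genes, SAC52, AT2G01250, AT2G19730 and AT3G07110. The call of RPL19 (-1.16, SE 0.36, adjusted p = 0.0399) was lost in 8 of the 12.

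The order of the estimates in total RNA was not that in the ribosome fractions. Of the 37 genes 15 were called in all 3 kinds of RNA, 29 in total and polysomal RNA, and 4 in total RNA but in neither fraction by edgeR's test (RPL3B, AT1G74060, RPL16A and STV1). STV1 was near the threshold in polysomal RNA (adjusted p = 0.0573). There it was called by DESeq2 (adjusted p = 0.0155), limma-voom (0.0385), with no filter (0.0145) and under a replicate block (0.0261). Its family was called there when summed (adjusted p = 0.025). In monosomal RNA STV1 was called by DESeq2 and with no filter, and its family was called when summed. In polysomal RNA the families of RPL3B and RPL16A were called when summed, and AT1G74060 was called without both control fractions of replicate 1. AT3G07110, which missed the threshold in total RNA, was among the called genes in both fractions. Across the 37 genes, the Spearman correlation of the log2 fold change in total RNA was -0.01 with that in monosomal and -0.14 with that in polysomal RNA. It was -0.40 with the control level per kilobase in total RNA, which enters the fold change itself, and 0.01 with coding length. These are descriptions of 37 genes measured in the same libraries. Standard errors were large beside the spread between genes, so correlations near 0 cannot show that the true orders differ.

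Changes within a family were compared as the ratio of counts of 2 genes in the same library, which needs no scaling. Of 12 such pairs, the groups did not overlap in 6 in total RNA, 2 in monosomal and 3 in polysomal RNA. No share over other gene pairs was computed, so these counts are a description only. The largest shift was in RPL10A, where the log2 ratio of AT1G08360 to PGY1 was -1.26, -1.06 and -1.77 in control total RNA and -0.17, -0.37 and -0.55 in the mutant. All mutant libraries were closer to an even ratio than any control. In monosomal and polysomal RNA the same ratio shifted by 0.28 and 0.53 with overlapping libraries. The log2 ratio of RPL23AA to RPL23AB was 1.90, 1.48 and 1.22 in control total RNA and 0.91, 0.41 and 0.72 in the mutant. In the ribosome fractions its mean shift had the opposite sign, at 0.23 and 0.56, and the libraries overlapped. SAC52 exceeded RPL10B by 5.46 ± 0.07 in control and 5.14 ± 0.15 in mutant total RNA, and RP1 exceeded RPL3B by 4.65 ± 0.18 and 4.34 ± 0.80 (log2 count ratio, SD, n = 3). The RPL4, RPL8 and one RPL6 pair moved by -0.26, -0.27 and 0.26 in total RNA without overlap. With 3 libraries against 3 an exact permutation test could not go below p = 0.10, so none was run.

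**Figure D4:**
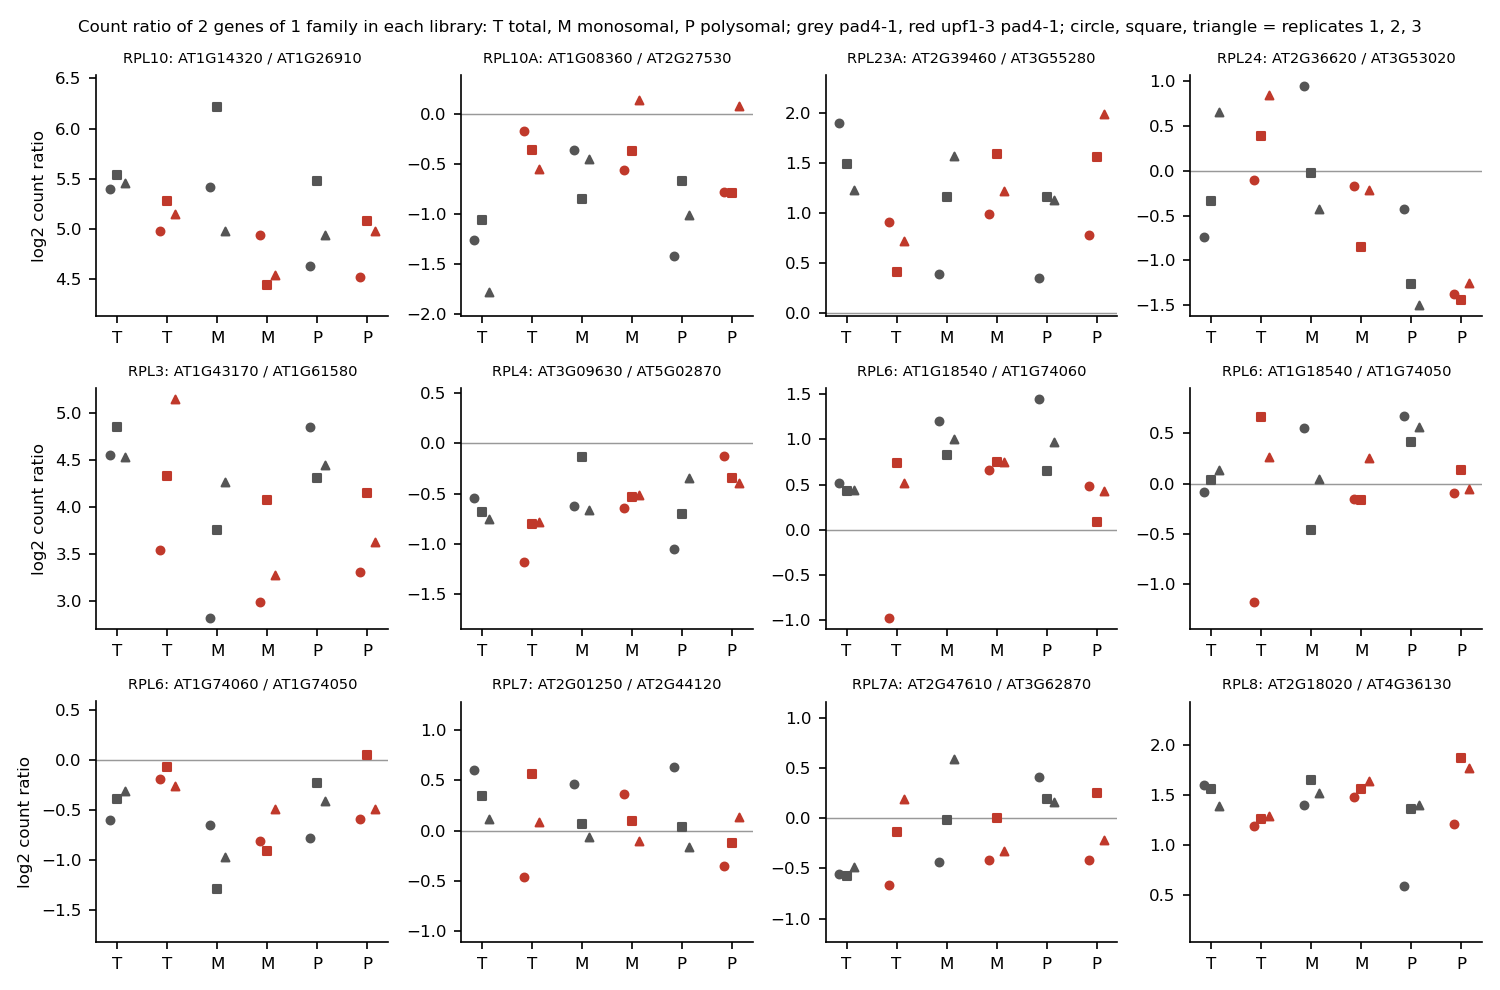
Log2 ratio of the counts of 2 genes of a family in each library, for the 12 pairs (each panel has its own axis range, and the grey line marks an equal count). In total RNA the RPL10A and RPL23A pairs move towards 0 in the mutant, by 1.00 and -0.86.

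Reads that near-identical copies share can be split between them by estimation. The closest listed copy of each gene had 68.7 to 99.1% identical coding sequence (median 86.4%). For 2 genes it was over 95%: AT1G33120 (RPL9), 99.1% identical to AT1G33140 with 458 bases in a row shared, and AT1G09590 (RPL21), 96.2% identical to AT1G09690. Values of these 2 genes are uncertain. For 14 of the 37 genes the closest copy shared more than 50 bases in a row. Among them were the RPL4, RPL8 and RPL10A pairs and the RPL6 pair AT1G74060 and AT1G74050 (94.2% identical), whose count ratios are described above. The effect of shared reads on these ratios was not tested. When counts were summed over all loci of a family before the test, all 37 genes belonged to families called lower in total RNA, 17 in monosomal and 33 in polysomal RNA.

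Polysomal was next compared with monosomal RNA within each genotype, to see how these transcripts were spread between few and several ribosomes. No gene of the 37 was called in either genotype by edgeR's quasi-likelihood test, where 0.33% of all genes were called in the control and 1.11% in the mutant. With an unadjusted p under 0.05 there were 7 and 11 of the 37, and 2666 and 2780 of all 20895 genes. DESeq2 called 4 of the 37 in each, where it called 2.36% and 3.65% of all genes, and limma-voom called 0. Under a replicate block AT1G04480 was called in the mutant (1 gene), and RPL30 was called there without both control fractions of replicate 1. The block takes same-numbered libraries of both genotypes to share 1 shift. Deviations of same-numbered control and mutant libraries correlated above 0.1 in 0 of 3 pairs in each fraction, so such sharing was not shown. Without mutant polysomal replicate 1, 2 genes were called in the mutant. The median log2 ratio of polysomal to monosomal was 0.02 in the control and -0.36 in the mutant, and -0.13 there without the library labelled mutant polysomal replicate 3.

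The ratio varied among the genes with the length of the coding sequence, which ran from 339 to 1224 bases. In the control RP1, among the longest, had the highest log2 ratio at 1.07 (SE 0.33, adjusted p = 0.178), with 408, 451 and 471 CPM in monosomal and 1134, 841 and 821 CPM in polysomal RNA. These groups did not overlap. AT4G27090 (RPL14), among the shortest, had the lowest at -1.35 (SE 0.39, adjusted p = 0.157), with 691, 858 and 1222 CPM in monosomal and 212, 418 and 459 CPM in polysomal RNA, again without overlap. AT1G77940 (RPL30), the shortest, stood at -1.14 in the control and -1.23 in the mutant (SE 0.32 in each, adjusted p = 0.131 and 0.0728). Its yeast counterpart is known to bind its own transcript. AT4G16720 (RPL15) was high for its length, at 0.96 and 0.83 (SE 0.33 in each, adjusted p = 0.248 and 0.276).

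Over the 37 genes, the Spearman correlation of the ratio with coding length was 0.64 in the control and 0.69 in the mutant, and over all 19714 tested protein-coding genes 0.42 and 0.47. It lay between 0.56 and 0.65 in each of the 6 same-numbered pairs of libraries. The 16 genes with a coding sequence under 600 bases had a median log2 ratio of -0.48 in the control and -0.85 in the mutant, and the 21 longer ones 0.20 and -0.16. All tested genes under 600 bases had medians of -0.63 and -0.64. The split at 600 bases was chosen after the values were seen. Points in each correlation share libraries and are not replicates.

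**Figure D5:**
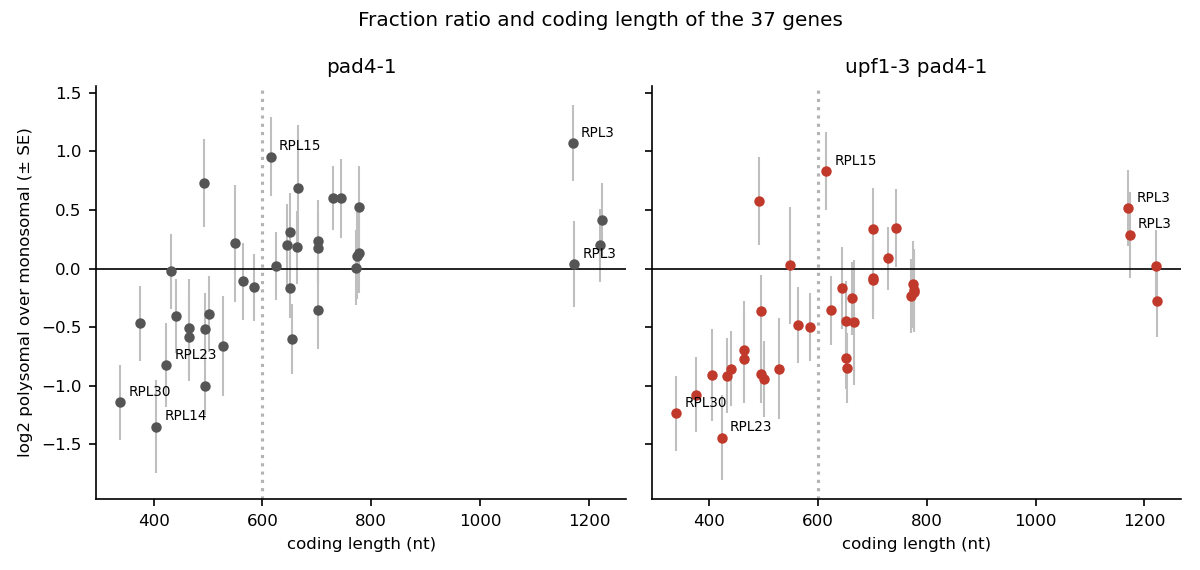
Log2 ratio of polysomal to monosomal level with its standard error against coding length in bases, for the 37 genes in each genotype; the dotted line marks 600 bases and named families hold the extremes. Short genes lie mostly below 0, and the Spearman correlation is 0.64 in the control and 0.69 in the mutant.

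The genotype difference of the polysome-to-monosome ratio, tested as an interaction, was called for none of the 37 by edgeR's quasi-likelihood test. It was called for 0% of all 20895 genes. None had an unadjusted p under 0.05, and DESeq2 and limma-voom called 0 of the 37. The median difference was -0.26, against 0.01 over all genes, with 31 of 37 estimates below 0. It ranged from -1.15 (RPL10B, SE 0.75) to 0.44 (AT4G27090, SE 0.55). The lower end also held AT2G19730 at -0.89 (SE 0.45), PGY1 at -0.76 (SE 0.48) and AT4G36130 at -0.70 (SE 0.49). Leaving out single libraries moved the median between -0.56 (without mutant polysomal replicate 1) and -0.03 (without the library labelled mutant polysomal replicate 3). A difference of the size of these errors was not detectable with 3 libraries a group.

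Polysomal was also set against total RNA, over all 18 libraries. Here the kind of RNA and the deposited table cannot be told apart, and only differences among genes are described. In the control 4 of the 37 were called higher in polysomal RNA, where 1.39% of all genes were, and 1 lower, where 1.09% were. In the mutant 10 were called higher, where 5.23% were, and 1 lower, where 3.72% were. The gene called lower was AT1G09590 (RPL21) in both, with 85.0 to 109 CPM in the 3 libraries of control total RNA and 26.7, 27.2 and 29.1 CPM in control polysomal RNA (-1.80, SE 0.23, adjusted p = 0.00157). In the mutant it stood at -1.14 (SE 0.23, adjusted p = 0.0049). Both of its calls held when single libraries were left out, but with no TMM scaling the mutant call was lost (-0.74, adjusted p = 0.252).

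The genes called higher in the control were RPL23AB, at 34.1, 42.5 and 35.5 CPM in total and 122, 111 and 152 CPM in polysomal RNA (1.78, SE 0.39, adjusted p = 0.0195), AT1G18540 at 1.56 (SE 0.32, adjusted p = 0.0128), and the RPL7 genes AT2G44120 and AT2G01250 at 1.37 and 1.13 (SE 0.31 and 0.27, adjusted p = 0.0229 and 0.031). All 4 calls were lost with no TMM scaling (adjusted p = 0.142 to 0.325). The number called in the control fell from 5 to 1 without control polysomal replicate 3, control total replicate 2 or control total replicate 3, to 2 without control total replicate 1 and to 3 without control polysomal replicate 2. The 10 in the mutant were these 4, the other 2 RPL6 genes, RPL15, RPL19, RPL23AA and STV1. RPL23AA held 30.0, 19.2 and 26.1 CPM in mutant total and 128, 111 and 56.2 CPM in mutant polysomal RNA (1.97, SE 0.36, adjusted p = 0.0025), without overlap. Except for RPL23AB, RPL15 and RPL19, these 10 calls held in all 18 fits. Without the library labelled mutant polysomal replicate 3, 13 of the 37 were called in either direction, with a median of 0.63 against 0.40 with it. At the low end of the mutant, short of the threshold, stood AT3G07110 at -0.82, SAC52 at -0.75 and AT1G70600 (RPL27A) at -0.58 (SE 0.31, 0.33 and 0.30, adjusted p = 0.11, 0.171 and 0.252).

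The genotype difference of the polysome-to-total ratio was called for none of the 37 by edgeR's quasi-likelihood test, and for 0% of all 21905 genes. None had an unadjusted p under 0.05, and DESeq2 and limma-voom called 0 of the 37. The median was 0.36, against -0.02 over all genes, with 25 of 37 above 0, and 0.65 without the library labelled mutant polysomal replicate 3. It ranged from -0.84 (AT3G07110, SE 0.44) to 1.04 (RPL3B, SE 0.57).

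None of the 37 genes had an annotated transcript with an exon junction more than 50 bases after its stop codon, a feature that marks targets of nonsense-mediated decay. Many of them had only 1 annotated transcript, and no share over all genes was computed. Whether their transcripts are targets of this decay was not tested.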

How the data were processed

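Total, monosomal and polysomal RNA libraries (18, in 6 groups of 3) were grouped by their titles. The authors deposited 2 tables of estimated counts per gene (expected counts), 1 for the 6 total and 1 for the 12 fraction libraries. Kallisto 0.43.0, limma and the TAIR10 build are named, without their roles, per the submitters' processing notes. No other sample columns were left unused (0). Counts were rounded to whole numbers and tested with edgeR 4.0.16 (R 4.3.3; quasi-likelihood, filterByExpr with a count minimum of 10, TMM, Benjamini-Hochberg over all tested genes, two-sided, called at adjusted p under 0.05), after a check on simulated data. Total RNA was fitted alone, the 12 fraction libraries together, and all 18 for polysomal against total. SE is the size of the log2 fold change over the square root of F. P-values measure the spread between these biological replicates.

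For total, monosomal and polysomal RNA, the genes named in full had the 4 lowest and 2 highest log2 fold changes between genotypes. Genes not called in total RNA and families with several genes were named as well. For the comparisons of polysomal with monosomal or total RNA only a selection of genes was named. Members and lists were chosen with earlier results of these data known. Gene positions, coding lengths (longest annotated, used for levels per kilobase) and promoters came from RefSeq TAIR10.1, matched by locus (33437 of 34212 loci); the tables hold no coordinates. Coding sequences were aligned with Biopython 1.88. Alternatives were other scalings (size factors, none, without organelle and ribosomal RNA genes), no filter, DESeq2 1.42.0, limma-voom 3.58.1, a replicate block, family sums and leaving out each library. Replicate numbers were checked by correlating deviations from group means: all 3 same-numbered pairs of mutant monosomal and polysomal libraries exceeded 0.1 (0.155 to 0.232), which was not so for any other groups compared. Precision depends on depth, 16325537 to 81528839 counts.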

Additional observations from a re-analysis of the deposited data

How the results depend on the processing

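The direction of the 37 genotype differences held under every setting tried in total RNA, and in the fractions except with no TMM scaling, where 2 monosomal and 1 polysomal estimates, none called, were above 0. Total RNA gave 34 to 37 calls under the settings other than leaving out a library. Without TMM the median of all genes moved to 0.62 in monosomal, 0.47 in polysomal and -0.13 in total RNA; relative to it the 37 genes stood at -1.01, -1.36 and -1.62, and the calls in monosomal and polysomal RNA fell from 18 and 30 to 0 and 0. DESeq2 raised the monosomal count to 30. Of polysome against monosome, 0 calls became 4 with DESeq2 and 1 with no filter in the control, and 4 with DESeq2, 2 with no filter and 1 without both control fractions of replicate 1 (a setting chosen after seeing the data) in the mutant. Of polysome against total in the control, 5 became 13 with DESeq2 and 1 without TMM. With family sums, 8 genes belonged to families that were called. The cause of these shifts was not tested.

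Leaving out each library in turn gave 29 to 35 calls in total RNA, 2 to 27 in monosomal and 16 to 29 in polysomal RNA. It gave 0 to 2 for polysome against monosome in the mutant and 0 in the control. For polysome against total it gave 1 to 6 in the control and 8 to 13 in the mutant, and for both genotype differences 0.

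With the replicate number as a block, 36, 20 and 31 genes were called in total, monosomal and polysomal RNA and 1 (AT1G04480) in polysome against monosome in the mutant; the other counts did not change (0, 0, 5, 11 and 0). Same-numbered control and mutant total libraries correlated at -0.007 to 0.117, and control monosomal and polysomal libraries at 0.060 to 0.339, so pairing was not shown there. With 3 libraries a group, differences of the size of their standard errors could not be called, and RPL10B and RPL16A had the fewest reads behind their values.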
